A study of Mus musculus with 2 samples.

Results

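Non-cycling cells were taken from both libraries of a single-cell experiment on cultured mouse renal progenitors, and the panobinostat-treated ones were compared with the vehicle-treated ones. A cell counted as non-cycling when it held at most 2 UMIs (distinct molecules) in total over 12 proliferation genes: Mki67, Top2a, Ccna2, Ccnb1, Ccnb2, Cdc20, Plk1, Pclaf, Rrm2, Mcm5, Cdc6 and Clspn. The cells were thus selected on measured values, and those 12 genes were left out of the 19382 genes compared. The limit kept 643 of 2854 vehicle cells and 1902 of 2281 panobinostat cells, which is 2545 of the 5135 cells deposited. The comparison addresses which differences between the libraries are still present once most dividing vehicle cells have been set aside.

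All cells came from Pax2.rtTA;TetO.Cre; R26.mT/mG mice on the C57Bl/6 strain, healthy and 9 weeks old, 2 animals in all; whether these animals were pooled is not stated in the labels. In this genotype the Pax2 promoter drives rtTA, which with doxycycline turns on Cre, and Cre switches the cell and its descendants from Tomato to GFP, so GFP records past as well as present Pax2 activity. Glomeruli were cultured for 5 days and the GFP-positive outgrowth was sorted. The sorted cells were starved for 16 h and then received 0.2 µM panobinostat or DMSO vehicle for 48 h. Each treatment is 1 library of 10x Chromium 3′ gene expression, so every difference below is between 2 libraries, with no replicate to measure variation between cultures or animals and therefore no p-value.

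Panobinostat inhibits histone deacetylases, the enzymes that remove acetyl groups from histone tails. Inhibitors of this class are known to stop cells in G1 or G2, often with more Cdkn1a, and also to raise genes that are silent in the cell type at hand, many of them neuronal. A growing culture that stops dividing loses the RNAs of DNA replication and mitosis whatever stops it, and genes of ribosome production and nucleotide synthesis usually decline with them. A vehicle cell outside S, G2 and M phase also lacks those RNAs, so it is a closer partner for a drug-treated cell than the average of a dividing culture. Such a vehicle cell may be in G1 between divisions or may have left the cycle, and the 12 genes do not separate these states.

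The limit divided the libraries very unequally. The non-cycling share was 22.5% of vehicle cells (95% Clopper-Pearson interval 21% to 24.1%) and 83.4% of panobinostat cells (81.8% to 84.9%). The panobinostat cells were deeper, with a median of 40326 UMIs per non-cycling cell against 24955 in vehicle, and a deeper cell passes an absolute limit less easily. When every cell was thinned to 18663 UMIs and shallower cells were left out, the shares under the same limit were 26.4% of 2401 vehicle cells and 96.9% of 2221 panobinostat cells, against 20.7% and 83% of those cells before thinning. At the edge of the limit, 165 vehicle cells held 2 UMIs over the 12 genes and 110 held 3, and the corresponding panobinostat cells numbered 430 and 208. The highest count in a cell was 260 in vehicle and 24 with panobinostat. By a score over S and G2/M genes, 627 of the 643 vehicle cells and 1901 of the 1902 panobinostat cells under the limit were called G1.

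The 379 panobinostat cells over the limit did not look like the 2211 vehicle cells over it. Rrm2 and Top2a supplied 43.6% and 21.4% of their UMIs over the 12 genes, and their Mki67, a marker of dividing cells, was 4.16 UMIs per 1000000 (CPM) where vehicle cells over the limit had 166 CPM. They were also the deepest population, with a median of 50525 UMIs. Against the non-cycling panobinostat cells, none of 8256 genes differed by at least 2-fold in either direction. This contrast divides the cells by the limit itself and is a description.

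Summed over cells, the vehicle non-cycling population held 18236643 UMIs and the panobinostat one 84220903 UMIs. Counts were summed and scaled to CPM. A call, higher or lower, required 10 CPM in 1 or both of the populations compared, a difference of 2-fold or more, and an exact 95% binomial interval that left out a ratio of 1. These intervals and all others here cover counting error only. The share of UMIs from the nuclear RNAs Malat1 and Neat1 had a median of 1.04% in vehicle and 4.2% in panobinostat non-cycling cells, and ribosomal protein genes had 14.5% and 11.8%. The part of these differences in depth and composition in the gene results was not tested, but calls within bands of equal depth are given below.

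Of 8634 genes past the 10 CPM floor in non-cycling cells, 797 were called higher with panobinostat (9.23%) and 594 lower (6.88%), and the median log2 ratio was 0.00. With all cells of both libraries, the same rule called 874 of 8860 genes higher (9.86%) and 961 lower (10.8%), with a median of -0.07. Within the vehicle library, non-cycling cells were called higher than the other vehicle cells for 62 of 8393 genes (0.739%) and lower for 419 (4.99%). These comparisons share cells, so their values are set side by side and are not independent of each other. Restricting the cells ended many more lower calls than higher ones: 674 of the 874 higher calls were also made in non-cycling cells, or 77.1%, against 451 of the 961 lower calls, or 46.9%. Of the 510 lower calls that ended, 200 ended because the gene no longer reached 10 CPM in either population. The restriction also added 123 higher and 143 lower calls.

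**Figure D1:**
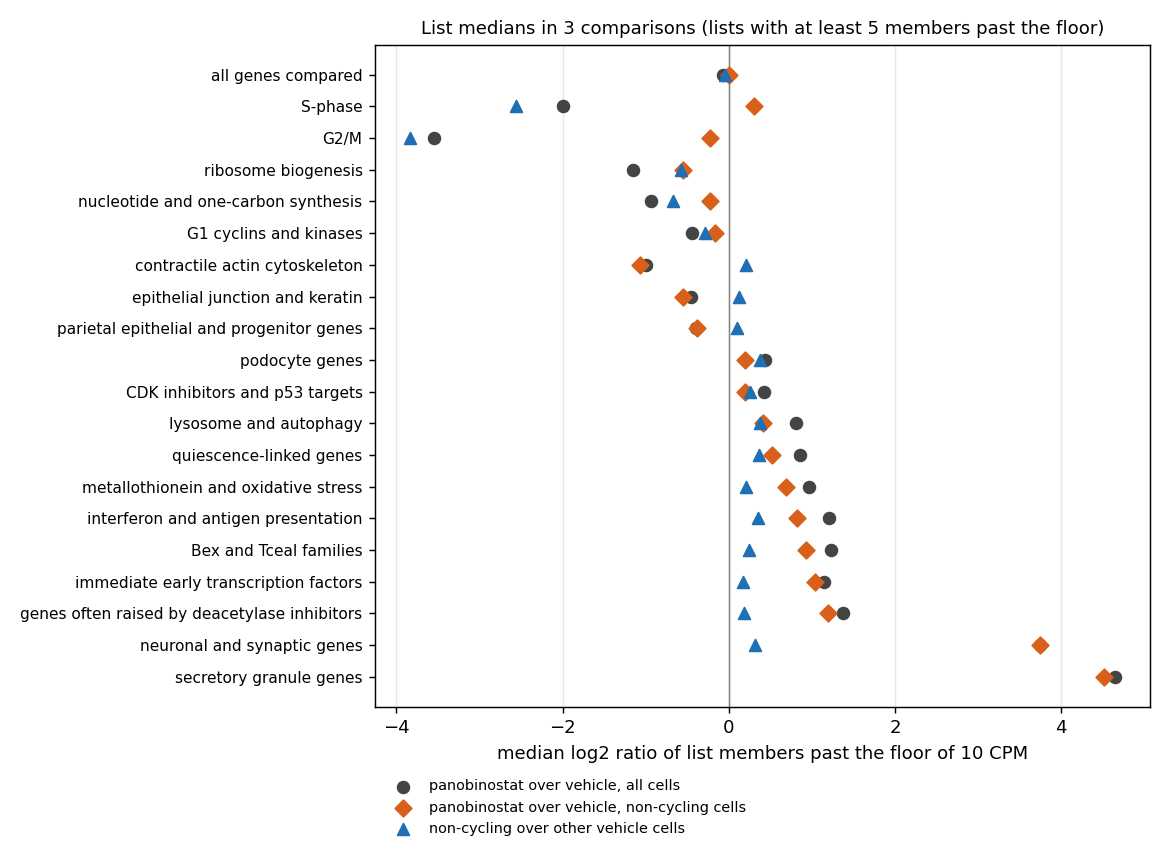
Median log2 ratio of the members of 19 gene lists and of all genes past the floor (x axis), for panobinostat over vehicle in all cells (circles), the same in non-cycling cells (diamonds) and non-cycling over other vehicle cells (triangles); medians of under 5 members are not drawn. The S-phase median moves from -2.00 in all cells to 0.30 in non-cycling cells, where fewer members pass the floor. Over the 25 members past it in all 3 comparisons the move is from -1.68 to 0.30. The contractile median stays near its value in non-cycling cells of -1.07. The neuronal median is 3.74 and 3.75, mostly from members that pass the floor through panobinostat cells only.

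The genes of DNA replication and mitosis were nearly level between the non-cycling populations. Their levels follow the 12 genes that chose the cells, so this closeness is set by the choice of cells and is given as a description. The S-phase list had 39 of its 46 members past the floor called lower over all cells, with a median log2 ratio of -2.00. In non-cycling cells 25 members passed the floor, 0 were called lower and 3 higher, with a median of 0.30. Of the G2/M list, 48 of 54 members were called lower over all cells (median -3.55), and in non-cycling cells 2 of 26 were called lower and 3 higher (median -0.22). Within the vehicle library, 44 of 46 S-phase and 51 of 55 G2/M members were called lower in its non-cycling cells, with medians of -2.56 and -3.83. These medians are not over the same members, since fewer pass the floor in non-cycling cells. For the 25 S-phase members past it in all 3 comparisons they were -1.68 (all cells), 0.30 (non-cycling cells) and -2.22 (within vehicle). For the 26 such G2/M members they were -1.84, -0.22 and -1.95.

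Single members show the scale of the change. Birc5, the survivin gene of the chromosomal passenger complex, was at 3.62 CPM in vehicle non-cycling cells, 189.7 CPM in the other vehicle cells and 4.58 CPM in panobinostat non-cycling cells. Its log2 ratio moved from -5.00 over all cells to 0.34 (interval -0.04 to 0.74), below the floor. Ube2c, which loads ubiquitin for the anaphase-promoting complex, stood at 15.6, 309.7 and 12.1 CPM in the same order, and its ratio went from -4.29 to -0.37. Hmmr, a spindle protein, and Pbk, a mitotic kinase, stayed somewhat lower with panobinostat, at -1.50 and -1.33, on 1.65 and 0.987 CPM in vehicle non-cycling cells. The replicative helicase subunit Mcm6 was at 20.1, 105 and 16.2 CPM.

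H2afz, the histone variant H2A.Z (chromosome 3, 137864487 to 137866922, GRCm38), was among the most abundant genes that followed the limit. It was at 433 CPM in vehicle non-cycling cells, 1447 CPM in the other vehicle cells and 438 CPM in panobinostat non-cycling cells. Its log2 ratio was -1.50 over all cells and 0.02 (-0.02 to 0.05) in non-cycling cells. Dut, which clears dUTP, was at 46.4, 238 and 45.6 CPM, and its ratio moved from -2.13 to -0.03. For these genes, panobinostat cells stood at the level of vehicle cells with few proliferation transcripts.

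**Figure D2:**
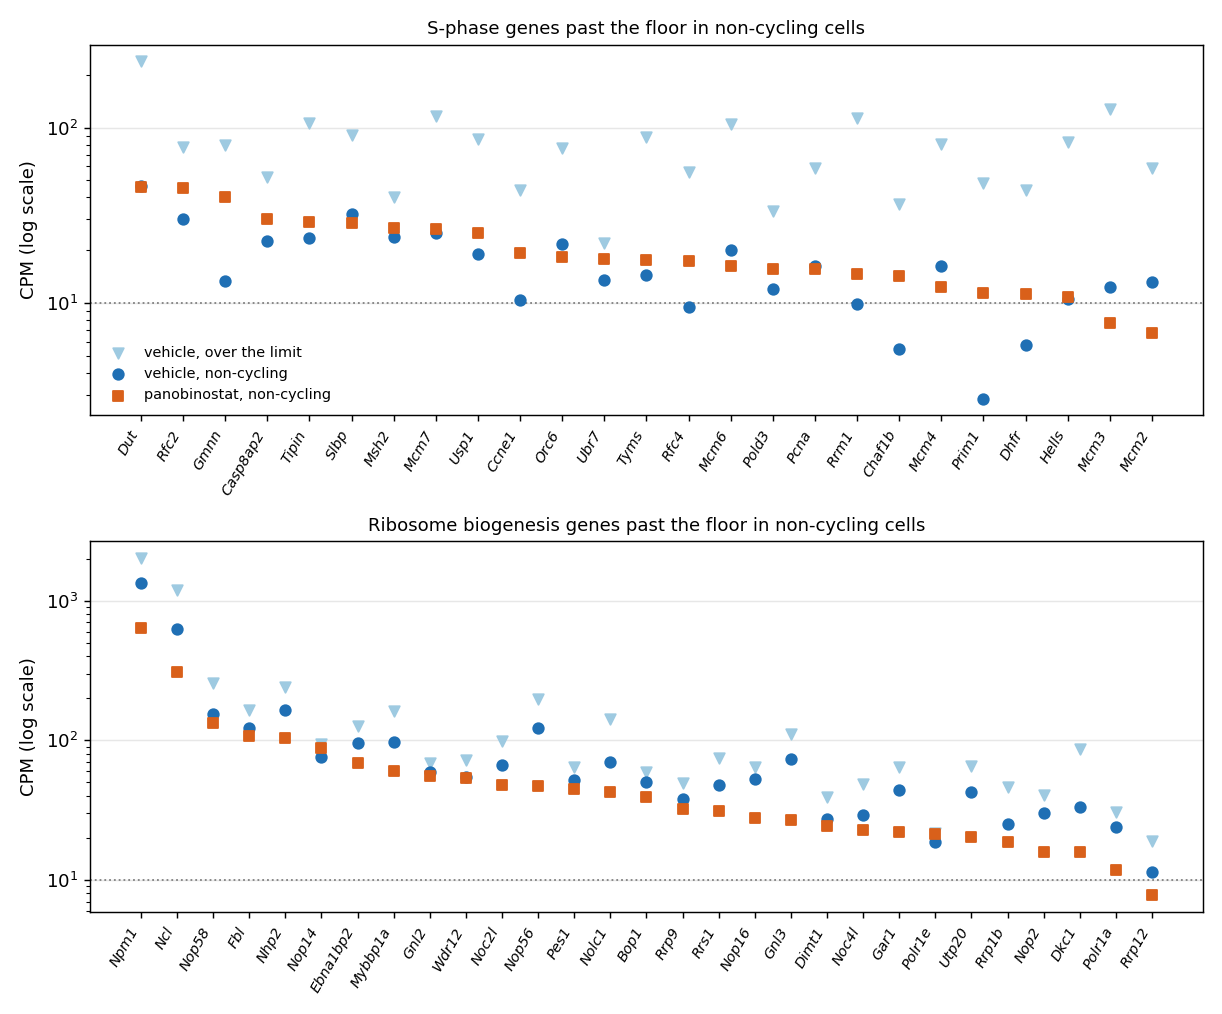
CPM on a log scale of the S-phase genes (upper panel) and ribosome biogenesis genes (lower panel) past the floor in non-cycling cells, for vehicle cells over the limit (triangles), vehicle non-cycling cells (circles) and panobinostat non-cycling cells (squares), 1 summed value per point; the dotted line is the 10 CPM floor. S-phase squares lie nearer to the circles than to the triangles for most genes, with the called genes Prim1, Chaf1b and Gmnn above the circles, while ribosome biogenesis squares mostly lie under the circles.

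Some replication and mitosis genes were higher with panobinostat than in non-cycling vehicle cells. The limit chose vehicle cells low in genes of this kind, so these calls are a description. Prim1, Chaf1b and Knstrn were also under 10 CPM in vehicle non-cycling cells and passed the floor through panobinostat cells only. A gene that low in vehicle could be called only higher. Prim1, the catalytic primase subunit (chromosome 10, 128015168 to 128030037, GRCm38), was at 2.85 CPM in vehicle non-cycling cells, 48.3 CPM in the other vehicle cells and 11.4 CPM in panobinostat non-cycling cells. Its log2 ratio was -1.78 over all cells and 2.00 (1.60 to 2.43) in non-cycling cells. Chaf1b, a subunit of the histone chaperone that follows the replication fork, was at 5.48, 36.6 and 14.2 CPM, and its ratio went from -1.10 to 1.37 (1.08 to 1.68). In all, 6 genes called lower over all cells were called higher in non-cycling cells: Chaf1b, Knstrn, Lig1, Ncaph, Prim1 and Spc25, of which Lig1 and Ncaph were singled out after their values were seen. Lig1, the ligase that joins Okazaki fragments, had ratios of -1.28 and 1.47, and Ncaph, a condensin subunit, -1.20 and 1.63.

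In each of these genes the panobinostat level lay between the non-cycling and the other vehicle cells. Gmnn, which blocks relicensing of replication origins, gave 13.3, 79.5 and 40.2 CPM in vehicle non-cycling, other vehicle and panobinostat non-cycling cells, and a ratio of 1.59. Hat1, which acetylates newly made histone H4, gave 20.2, 87.2 and 41.9 CPM and a ratio of 1.05. Cdc25b, the phosphatase that opens entry into mitosis, was at 2.58, 14.9 and 14.6 CPM, a ratio of 2.51 where over all cells it was 0.24. Between the non-cycling populations Cdc25b passed the floor through panobinostat cells only. Anln, the anillin of the cleavage furrow, and Hjurp, the chaperone of the centromeric histone, were the G2/M members called lower, at -1.53 and -1.18.

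The promoters of the genes that follow the limit are shown because this division of genes can be set against DNA letters near their starts. RefSeq promoter windows on GRCm38.p6 were searched over 250 bases before the start, on both strands; 6833 of the 8634 genes past the floor matched by symbol, with 8777 windows. The E2F motif was taken as TTTCCCGC or TTTGGCGC and the cell-cycle homology region (CHR) as TTTGAA, with no overlap between these motifs. Windows of 180 bases before the start are printed with the E2F motif of Mcm6 and the CHR of Ube2c in capitals; the CHR reads TTCAAA when it lies on the other strand. Mcm6 lies at chr1:128359706-128359885 on the minus strand and Ube2c at chr2:164769749-164769928 on the plus strand.
Mcm6: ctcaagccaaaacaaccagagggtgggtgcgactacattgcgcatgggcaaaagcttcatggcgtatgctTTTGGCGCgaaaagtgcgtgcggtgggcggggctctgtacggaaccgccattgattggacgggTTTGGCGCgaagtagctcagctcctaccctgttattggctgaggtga
Ube2c: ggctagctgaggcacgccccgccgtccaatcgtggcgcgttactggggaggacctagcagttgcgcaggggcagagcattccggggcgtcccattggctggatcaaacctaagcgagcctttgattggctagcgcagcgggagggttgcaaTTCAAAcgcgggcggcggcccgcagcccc

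The E2F motif was in 1.3% of all 32851 promoter windows and in 2.3% of the windows of genes past the floor. Among genes called lower in non-cycling than in other vehicle cells it was in 33 of 401 windows, or 8.23%. Among genes called lower with panobinostat in non-cycling cells it was in 13 of 607 windows, or 2.14%, and among those called higher in 14 of 815, or 1.72%. The CHR letters were in 16% of all windows, 9.82% of those of genes past the floor, 18.2% of those lower within vehicle, 11% of those lower with panobinostat and 9.45% of those higher. The genes lower within vehicle were found by dividing the cells on proliferation genes, so that set is largely fixed by the choice of cells. Its E2F and CHR shares are therefore a description, and their distance from the panobinostat shares is no test. A match is only a string of letters in the window and no evidence of binding.

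Some genes of ribosome production were still called lower in non-cycling cells. The list had 17 of 30 members called lower over all cells (median -1.15), 7 of 29 in non-cycling cells (median -0.55) and 2 of 30 within vehicle (median -0.57). The shares of all genes called lower were 10.8%, 6.88% and 4.99% in the same order. Ncl, the nucleolar protein nucleolin, was at 625 CPM in vehicle non-cycling cells, 1191 CPM in the other vehicle cells and 306 CPM in panobinostat non-cycling cells. The panobinostat level was thus under both vehicle levels, with a log2 ratio of -1.03 in non-cycling cells and -1.80 over all cells. Npm1, the nucleolar chaperone nucleophosmin, was at 1327, 2009 and 642 CPM (ratio -1.05), and Nop56, of the box C/D particles that methylate ribosomal RNA, was at 123, 197 and 46.8 CPM (ratio -1.39).

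Nolc1, a nucleolar scaffold, did not keep its call. It was at 69.4, 143 and 42.4 CPM, and its ratio moved from -1.58 to -0.71 (-0.80 to -0.62). The other ribosome biogenesis members called lower in non-cycling cells were Gnl3 (-1.46), Utp20 (-1.07), Polr1a (-1.04) and Dkc1 (-1.08). Of the nucleotide and one-carbon list, 7 of 22 members were called lower and 1 higher in non-cycling cells (median -0.23), against 11 and 1 of 24 over all cells (median -0.93). In non-cycling cells 6.88% of all genes were called lower and 9.23% higher. Ctps, which makes CTP, was at 106, 142 and 43.6 CPM (ratio -1.27), and Mthfd2, a mitochondrial folate enzyme, at 68.9, 88.7 and 23.7 CPM (ratio -1.54). None of the 82 ribosomal protein genes past the floor was called in non-cycling cells, where their median was -0.25.

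Cyclin D and its kinase were lower with panobinostat in both choices of cells. Ccnd1, cyclin D1, which carries growth signals into the cycle (chromosome 7, 144929931 to 144939925), was at 1673 CPM in vehicle non-cycling cells, 1865 CPM in the other vehicle cells and 539 CPM in panobinostat non-cycling cells. Its log2 ratio was -1.63 (-1.66 to -1.61) in non-cycling cells and -1.67 over all cells. Its partner kinase Cdk4 was at 243, 319 and 98.2 CPM (-1.31), and Rb1, the pocket protein that the pair phosphorylates, was called higher at 23.9, 22.8 and 76 CPM (1.67). Of the 14 G1 cyclins and kinases past the floor, Ccnd1 and Cdk4 were called lower and Rb1 higher, against 6 lower and 1 higher of 17 over all cells. In non-cycling cells this is 14.3% lower and 7.14% higher, beside 6.88% and 9.23% of all genes.

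Among CDK inhibitors and p53 targets, 5 of 27 members were called higher and 1 lower (median 0.19). Those are 18.5% and 3.7%, against 9.23% and 6.88% of all genes. Cdkn2a, which encodes p16 and the p53 activator Arf, was at 94.6, 78.5 and 389.5 CPM in vehicle non-cycling, other vehicle and panobinostat non-cycling cells, a log2 ratio of 2.04 (1.97 to 2.11). Counts near the 3′ end do not tell its products apart. Cdkn2d, the inhibitor p19, was called in non-cycling cells only: 4.39, 17 and 28.9 CPM gave a ratio of 2.72, where over all cells it was 0.98. Cdkn1a, the inhibitor p21, was at 545, 505 and 623 CPM, a ratio of 0.19 in non-cycling cells and 0.29 over all cells. Cdkn1b (0.22) and Cdkn1c (0.58) were not called either.

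Trp53 itself was lower with panobinostat, at 202, 254 and 89.1 CPM (-1.18), while Mdm2, the ligase that degrades its protein, was higher at 242, 267 and 637 CPM (1.40). The antiproliferative genes Btg2 (1.39) and Btg1 (1.09) were the other members called higher. Trp53inp1, a p53 target, lost its call, since its ratio went from 1.34 over all cells to 0.71, with 47.8, 27.8 and 78 CPM.

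**Figure D3:**
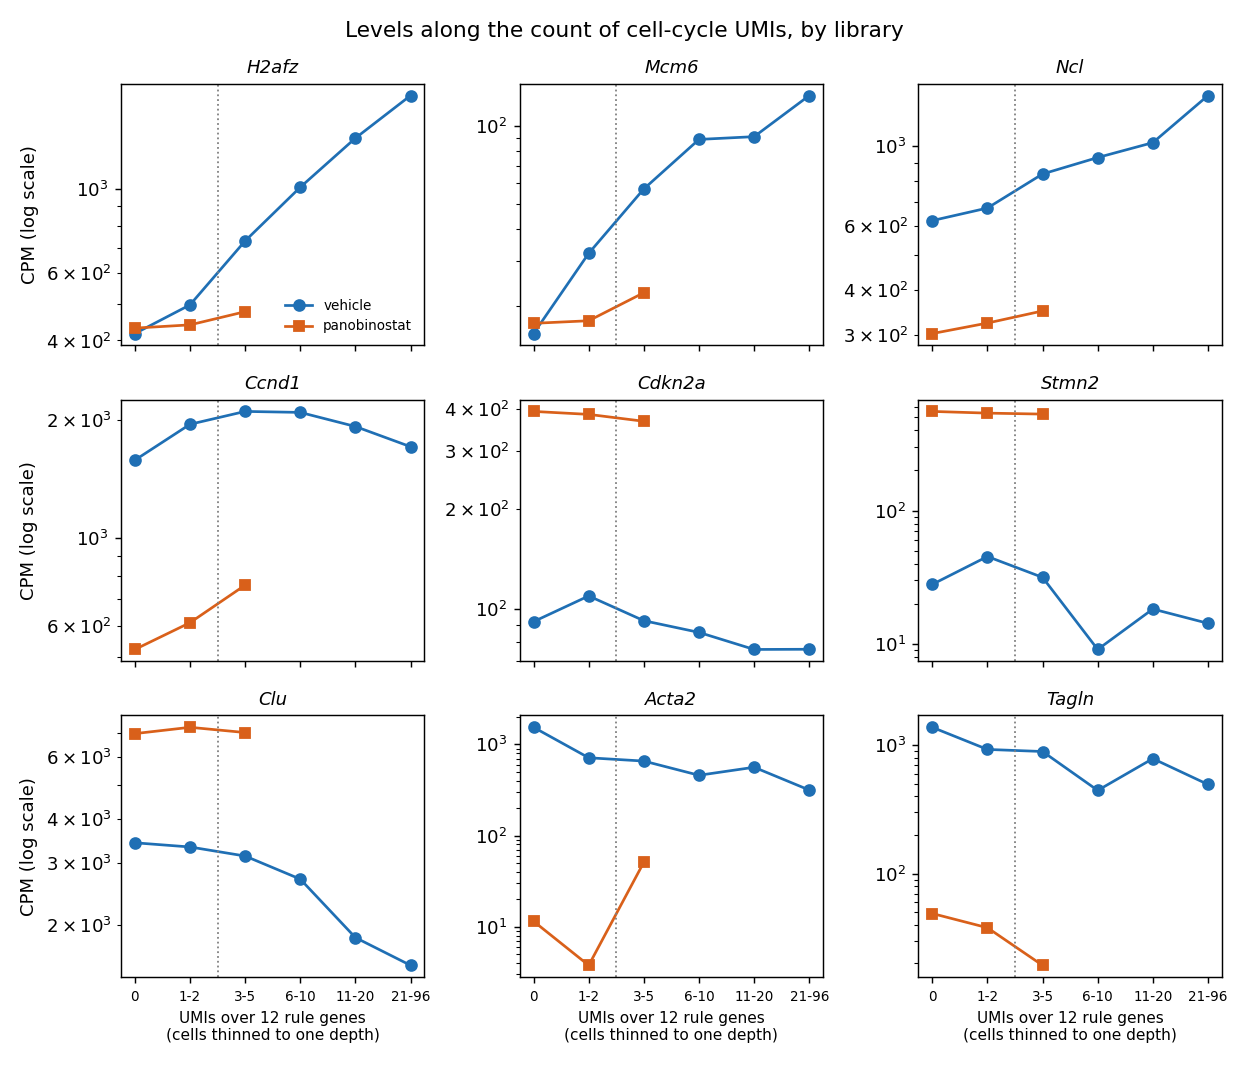
CPM on a log scale of 9 genes (y axis) against the number of UMIs over the 12 rule genes in cells thinned to 18663 UMIs (x axis), for vehicle (circles) and panobinostat (squares); the dotted line marks the limit, and panobinostat cells with more than 5 such UMIs are not drawn. H2afz and Mcm6 meet at the left edge, whereas Ncl, Ccnd1, Cdkn2a, Stmn2, Clu, Acta2 and Tagln differ there between the libraries.

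The levels along the count of proliferation UMIs, in cells thinned to one depth, show which levels depend on that count. In vehicle cells H2afz went from 417 CPM in the 291 cells with 0 UMIs to 1758 CPM in the 1236 cells with 21 to 96, and in the 1345 panobinostat cells with 0 it was 431 CPM. Ncl went from 622 to 1384 CPM in the same vehicle cells and was 302 CPM in the panobinostat cells. Ccnd1 showed no such steady rise in vehicle, with 1578 CPM at the low end and 1707 CPM at the high end, against 522 CPM with panobinostat. Between those ends it was higher in vehicle, with 2098 CPM in the cells with 3 to 5 such UMIs. Clu, the secreted chaperone clusterin, was at 3421 CPM in the vehicle cells with 0 and 1540 CPM in those with the most, and at 6965 CPM with panobinostat.

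Some genes called higher over all cells were also more abundant in non-cycling than in other vehicle cells, and their differences were smaller in non-cycling cells. Clu was at 3464, 1899 and 6535 CPM, and its log2 ratio of 0.92 (0.90 to 0.93) was under the call that it had over all cells (1.56). Malat1 stayed called, at 12590, 6014 and 42486 CPM, with 1.75 in place of 2.51, and Neat1 lost its call, with 0.76 in place of 1.26. The lysosome and autophagy list had 4 of 28 members called higher (median 0.41) where it had 8 over all cells (median 0.81). That is 14.3% and 28.6%, beside 9.23% and 9.86% of all genes. Ctsl, the protease cathepsin L, was at 960, 860.4 and 3509 CPM (1.87), and Lamp2, a lysosomal membrane protein, moved from 1.14 to 0.66.

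The quiescence-linked list, transcripts that rise in resting cells of other systems, had 7 of 22 members called higher and 1 lower in non-cycling cells (median 0.52), against 9 higher over all cells (median 0.86) and 4 of 21 higher within vehicle (median 0.36). The shares of all genes called higher were 9.23%, 9.86% and 0.739% in the same order. Gas6, a ligand of the TAM receptors, was at 16.6, 8.16 and 71.2 CPM (2.10). Klf2, a zinc finger factor that restrains proliferation, was at 10.6, 7.6 and 102 CPM (3.27), and Pdk4, which slows pyruvate oxidation, at 4.39, 4.41 and 28.5 CPM (2.70). Fhl1, a LIM protein of muscle and other cells, was the member called lower, at 82.4, 44.9 and 28.3 CPM (-1.54). It lost the call in the cells with little Acta2 described below, where its ratio was -0.26.

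Many neuronal and secretory granule genes were called higher in both choices of cells. Among all genes, 9.23% were called higher in non-cycling cells and 9.86% over all cells. Of the neuronal and synaptic list, 15 of 16 members past the floor were called higher (median 3.75), and of the secretory granule list 8 of 10 (median 4.51), against 15 of 16 and 8 of 10 over all cells (3.74 and 4.65). Most of these members were near 0 in vehicle and passed the floor through panobinostat cells only, which favours a call in that direction; 14 of the 30 neuronal and 8 of the 18 granule members did not pass it. Over the members past the floor in all 3 comparisons, the medians were 1.52 in non-cycling cells and 1.70 over all cells for 6 neuronal genes, and 0.85 and 0.83 for 3 granule genes. Stmn2, a microtubule-destabilizing protein of growing axons (chromosome 3, 8509360 to 8561606, GRCm38), was at 40.5 CPM in vehicle non-cycling cells, 22.7 CPM in the other vehicle cells and 551 CPM in panobinostat non-cycling cells, a log2 ratio of 3.76 (3.66 to 3.87). Map2, a dendritic microtubule protein, was at 1.48, 4.19 and 70.5 CPM, so its ratio was larger in non-cycling cells (5.57, 5.03 to 6.18) than over all cells (4.27).

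Detection per cell differed among the neuronal genes. Stmn2 had a UMI in 1893 of 1902 panobinostat non-cycling cells and in 73 of 643 vehicle ones, and after thinning to 18663 UMIs in 99.2% of 1843 and 10.3% of 497 cells. In vehicle, 98.9% of its UMIs lay in the 10% of cells with the most. Other members were found in fewer panobinostat cells after the same thinning, such as Tubb3 in 43%, Stmn4 in 25.4% and Elavl3, a neuronal RNA-binding protein, in 15.7%, against 3.02%, 0% and 0.201% of vehicle cells. No second cell type is at hand in these libraries to measure the background from free RNA, so a low share in vehicle is not read as expression. The summed neuronal list had a median of 288 CPM per vehicle non-cycling cell, with a 10th to 90th percentile range of 85.7 to 721 CPM. In panobinostat non-cycling cells the median was 1651 CPM and the range 1117 to 2206 CPM. Only 15 of the 643 vehicle cells, or 2.33%, reached the 10th percentile of the panobinostat cells. The list was chosen with earlier results known and most of its members past the floor were near 0 in vehicle, so this separation is a description. The list summed to 373 CPM in vehicle and 1681 CPM in panobinostat non-cycling cells, Stmn2 included.

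Among granule genes, Pcsk1n, the inhibitor of a prohormone convertase, was at 0.823, 0.758 and 84.4 CPM in vehicle non-cycling, other vehicle and panobinostat non-cycling cells (6.68, 5.96 to 7.52). Scg5, a chaperone of another convertase, was at 1.54, 0.772 and 82.8 CPM (5.75), and Chga, chromogranin A, at 0.165, 0.0827 and 16.8 CPM (6.68, 5.13 to 8.96), the first of these resting on 3 UMIs. Cpe, the carboxypeptidase that trims prohormones, was not called, with 246, 149 and 154 CPM (-0.68). Stmn4, a stathmin, had 0 UMIs in vehicle non-cycling cells, which allows up to 0.165 CPM, and 21.2 CPM with panobinostat; at that bound it still lies above the median of the neuronal list.

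Meg3, a maternally expressed long noncoding RNA (chromosome 12, 109541001 to 109571726, GRCm38), was at 0.329, 0.317 and 143 CPM, a log2 ratio of 8.76 (7.64 to 10.21) against 8.80 over all cells. Its vehicle UMIs came from 3 of 643 cells. Of the Bex and Tceal families, small X-linked genes abundant in brain, 6 of 12 members were called higher and 0 lower, against 9.23% and 6.88% of all genes. The median was 0.93, but 0.44 over the 9 members past the floor in all 3 comparisons. Bex2, with 1.92, 2.55 and 69.6 CPM (5.18), passed the floor through panobinostat cells only, which favours a call in that direction. Ly6c1, a surface protein of some leukocytes and endothelium, was at 1.65, 2.51 and 99.3 CPM (5.92), and Csn3, kappa casein, at 2.36, 1.56 and 121 CPM (5.68).

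**Figure D4:**
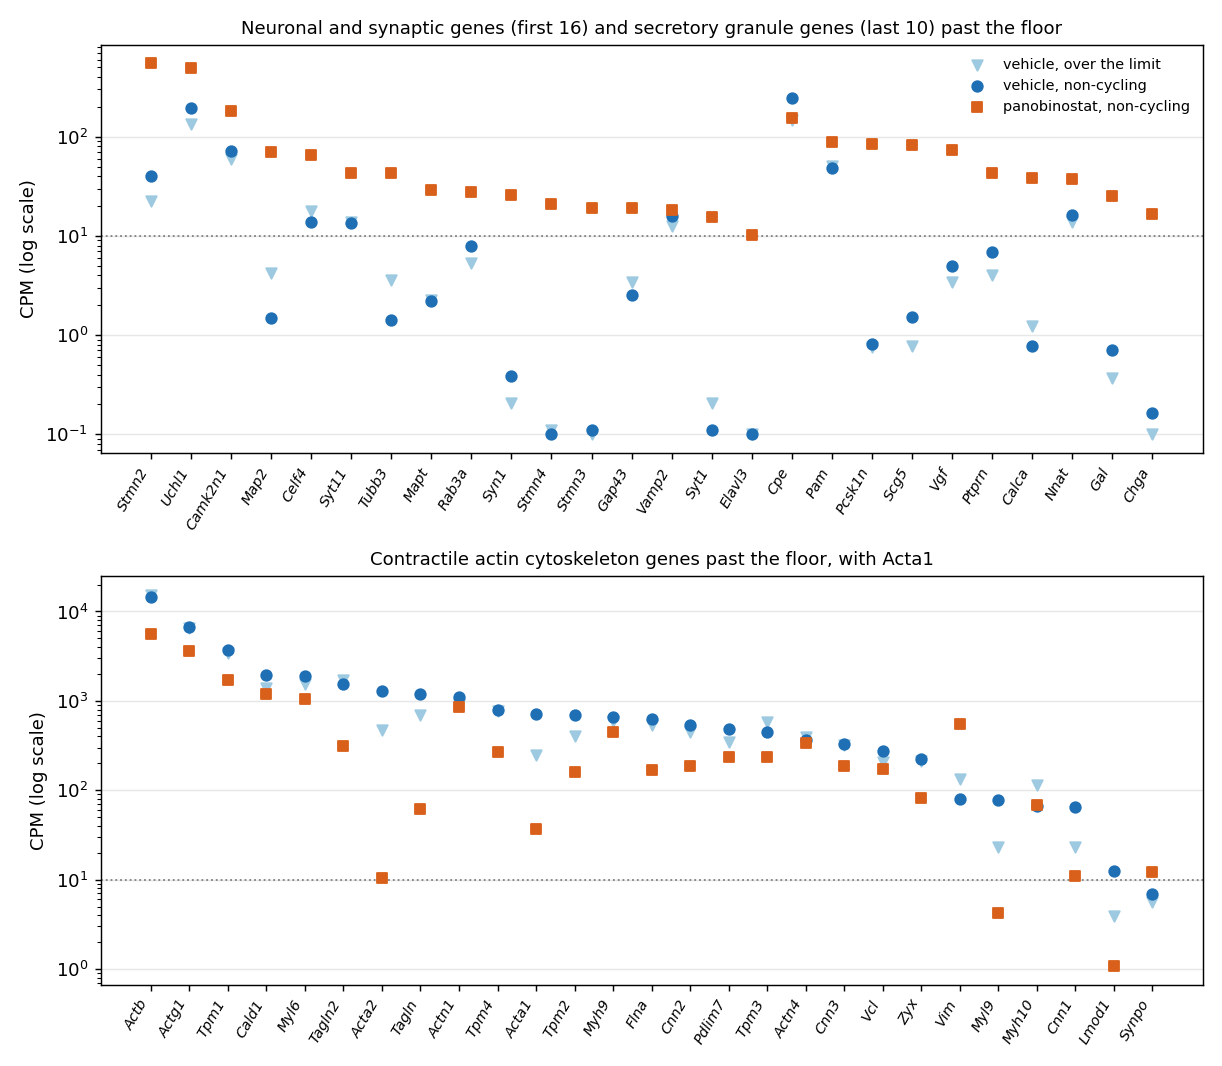
CPM on a log scale of the neuronal and secretory granule genes (upper panel) and the contractile actin cytoskeleton genes with Acta1 (lower panel) past the floor, for vehicle cells over the limit (triangles), vehicle non-cycling cells (circles) and panobinostat non-cycling cells (squares), 1 summed value per point; values under 0.1 CPM are drawn at 0.1 and the dotted line is the 10 CPM floor. In the upper panel the squares lie above both vehicle points except for Cpe, while in the lower panel Acta2, Tagln, Acta1, Myl9 and Cnn1 have vehicle non-cycling points above both others.

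For smooth muscle actin the difference was larger in non-cycling cells than over all cells. Acta2 (chromosome 19, 34241090 to 34255590, GRCm38) was at 1278 CPM in vehicle non-cycling cells, 478 CPM in the other vehicle cells and 10.5 CPM in panobinostat non-cycling cells. Its log2 ratio was -5.74 over all cells and -6.93 (-7.03 to -6.83) in non-cycling cells, and within vehicle it was 1.42 in favour of non-cycling cells. Tagln, the actin-bundling protein transgelin, was at 1203, 689 and 61.9 CPM (-4.28, from -3.73), Acta1, skeletal actin, at 710.3, 245 and 36.5 CPM (-4.28, from -3.11), and Myl9, a regulatory myosin light chain, at 77.2, 23.2 and 4.22 CPM (-4.20, from -3.12). In this group the highest level was in vehicle cells with few proliferation transcripts.

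Acta2 UMIs were found in 428 of 643 vehicle non-cycling cells and were concentrated in some of them. The 10th percentile of the vehicle non-cycling cells was 0 CPM, the median 49.6 CPM, the 90th percentile 3110 CPM and the highest cell 42314 CPM, and the 10% of cells with the most held 79.8% of the Acta2 UMIs. With panobinostat 170 of 1902 cells had a UMI. A fall in each cell and a lower number of high cells therefore cannot be told apart from the sums. Over all 594 genes called lower, 156 had more than 50% of their vehicle UMIs in the top 10% of cells, and of the 797 called higher 81 had that share of their panobinostat UMIs there.

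The contractile list as a whole was lower in both choices of cells: 14 of 26 members were called lower and 1 higher in non-cycling cells (median -1.07), and 13 of 25 lower and 2 higher over all cells. In non-cycling cells 6.88% of all genes were called lower and 9.23% higher. Among the 343 vehicle and 1831 panobinostat non-cycling cells with at most 1 Acta2 UMI, a choice made after the values were seen, 11 of 25 members were called lower and 3 higher (median -0.84). In those cells Tagln was at a ratio of -2.31 and Myl9 at -1.73, but Cnn1, smooth muscle calponin, turned from -2.56 to 1.57 and Lmod1, leiomodin, lost its call at -0.92. Lce1g, a cornified envelope gene, turned from -1.29 to 0.36.

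Abundant actin genes found in most cells were lower as well. Actb, cytoplasmic beta actin, was at 14597, 15327 and 5623 CPM (-1.38), Tpm1, a tropomyosin, at 3710, 3420 and 1718 CPM (-1.11), and Flna, the crosslinker filamin A, at 619, 536 and 169.8 CPM (-1.87). These did not depend on the limit within vehicle (-0.07, 0.12 and 0.21). Vim, vimentin, which is an intermediate filament gene and was placed in this list, was the member called higher, at 80.8, 133 and 551 CPM (2.77). Per cell, the summed list had a median of 36071 CPM in vehicle non-cycling cells and 16502 CPM with panobinostat, and 173 vehicle cells (26.9%) lay at or under the 90th percentile of the panobinostat cells, so these distributions overlapped.

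CArG boxes, the A/T-rich decamers that serum response factor binds, are shown for 3 genes called lower because Srf itself was among them. Srf was at 20.9, 21 and 8.48 CPM (-1.30), and Cnn2, a calponin, at 536, 447 and 186 CPM (-1.53). The motif was in 1.47% of all promoter windows, 1.24% of those of genes past the floor, 19 of 607 windows of genes called lower in non-cycling cells (3.13%), 10 of 815 of those called higher (1.23%) and 5 of 26 windows of the contractile list (19.2%). It was also in 2 of 23 windows of the neuronal list (8.7%), 3 of 52 of the G2/M list (5.77%), 1 of 38 of the S-phase list (2.63%) and 2 of 53 windows of genes higher in non-cycling than in other vehicle cells (3.77%), so such matches were not particular to genes called lower. Of the contractile members with a match, Cnn2 and Myl9 were called lower, and Actg1, Myl6 and Vcl were not. The windows are chr2:156775284-156775463 (plus strand) for Myl9, chr10:79988420-79988599 (plus) for Cnn2 and chr17:46556163-46556342 (minus) for Srf, with the CArG box in capitals.
Myl9: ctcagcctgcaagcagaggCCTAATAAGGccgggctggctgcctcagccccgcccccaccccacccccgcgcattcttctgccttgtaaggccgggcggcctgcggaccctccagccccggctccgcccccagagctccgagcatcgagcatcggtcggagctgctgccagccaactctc
Cnn2: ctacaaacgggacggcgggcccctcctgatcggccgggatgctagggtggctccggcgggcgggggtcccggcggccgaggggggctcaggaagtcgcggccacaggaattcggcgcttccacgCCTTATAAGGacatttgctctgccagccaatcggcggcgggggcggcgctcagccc
Srf: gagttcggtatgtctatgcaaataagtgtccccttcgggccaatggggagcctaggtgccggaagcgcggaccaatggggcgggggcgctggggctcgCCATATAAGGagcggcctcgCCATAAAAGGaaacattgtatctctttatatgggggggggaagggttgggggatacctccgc

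Of 20 Srf and Yap targets past the floor, 3 were called lower (Srf, Fhl2 and Edn1) and 0 higher, with a median of -0.05, where 6.88% of all genes were called lower and 9.23% higher. Edn1, at -1.02, was not called over all cells (-0.49) and was at -0.33 in the cells with at most 1 Acta2 UMI. Among other genes with small ratios were Clcf1, a cytokine of the interleukin 6 family, at 74.5, 56.3 and 1.98 CPM (-5.23), Tgfb1i1, the focal adhesion protein Hic-5, at 58.7, 33.1 and 1.53 CPM (-5.26), and Tnc, tenascin C, at 149, 76.8 and 12.9 CPM (-3.54). The matrix and mesenchymal list had 6 of 26 members called higher and 5 lower (median 0.26). Fn1, fibronectin, was at 1920, 964 and 705 CPM, a ratio of -1.44 that was -0.72 over all cells, and Timp3, an inhibitor of matrix proteases, was at 122, 76.2 and 537 CPM (2.14).

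Of the immediate early transcription factors, 9 of 17 were called higher and 0 lower (median 1.04), the same counts as over all cells (median 1.15). In non-cycling cells 9.23% of all genes were called higher and 6.88% lower. Fos, a subunit of AP-1, was at 38.3, 30.7 and 319 CPM (3.06), Atf3, a stress-induced bZIP factor, at 18.2, 16 and 105 CPM (2.53), and Egr1, a zinc finger factor, at 87.8, 85.6 and 527 CPM (2.58). Metallothionein and oxidative stress genes had 8 of 21 called higher and 0 lower (median 0.69), against 10 of 21 over all cells. Mt3, a metallothionein of brain, was at 2.08, 1.14 and 88.3 CPM (5.40), and Gsta4, a glutathione transferase, at 16.8, 7.17 and 199.7 CPM (3.57).

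Genes often raised by deacetylase inhibitors in other cells had 9 of 14 members called higher (median 1.19), against 11 over all cells (median 1.37); Clu and Gsn, which encodes the actin-severing protein gelsolin, were the members that lost the call. This list was chosen with earlier results of these libraries known, as were the others, and its direction is not independent evidence. H1f0, the linker histone of resting cells, was at 37.3, 62.4 and 157 CPM, so its ratio was larger in non-cycling cells (2.07) than over all cells (1.43). Tubb3, the neuronal beta tubulin, was at 1.43, 3.63 and 42.7 CPM (4.91, from 3.76). Of interferon and antigen presentation genes 6 of 13 were called higher and 1 lower (median 0.82), where 9.23% and 6.88% of all genes were. H2-D1, an MHC class I heavy chain, was at 239.7, 213 and 596 CPM (1.31). Cxcl10, a chemokine, was at 22.8, 21.2 and 121 CPM (2.41). The 10% of cells with the most held 74.7% of the Cxcl10 UMIs with panobinostat and 100% in vehicle. Isg15 (70.5%) and Rsad2 (80.9%), also called higher, were concentrated likewise with panobinostat.

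Of the drug's own target family 16.7% were called higher and 0% lower, beside 9.23% and 6.88% of all genes. Of 12 histone deacetylase genes past the floor, Hdac5 (log2 ratio 1.92) and Hdac11 were called higher and 0 were called lower, with a median of 0.13. Hdac5 and Hdac11 were under 10 CPM in vehicle non-cycling cells and passed the floor through panobinostat cells only, which favours a call in that direction. Over the 8 members past the floor in all 3 comparisons the median was also 0.13. Of 17 acetyltransferases and bromodomain readers, Hat1 alone was called, and the median was -0.38. Of 14 replacement, variant and linker histone genes, H1f0 and H2afv were called higher and H2afy2 lower. H2afv, a second H2A.Z gene, was at 41.1, 101 and 141 CPM (1.78, from 0.65), unlike H2afz, and H2afx, which is phosphorylated at DNA breaks, was at 44.8, 131 and 29.2 CPM (-0.62, from -1.94).

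Lineage and progenitor genes were called in both directions, but most of their ratios were below 0. Pax2, the lineage factor, was at 40.4, 40.4 and 24 CPM (-0.75), and its relative Pax8 at 113, 122 and 122 CPM (0.11). Krt8, a simple epithelial keratin, was at 5939, 4247 and 1717 CPM (-1.79), and Ncam1, an adhesion molecule of the developing kidney, at 73, 57.2 and 272 CPM (1.90). Vcam1 was called lower (-1.62), and Krt18 (-0.84), Cldn1 (-0.53), Prom1 (-0.30) and Cd24a (-0.14) were below 0 without a call. Of the 20 parietal epithelial and progenitor genes past the floor 3 were called higher and 4 lower (median -0.38), against 4 and 3 over all cells. In non-cycling cells 9.23% of all genes were called higher and 6.88% lower. The median of the parietal epithelial and progenitor list was -0.48 over the 18 members past the floor in all 3 comparisons. Of 17 podocyte genes past the floor, Pla2r1 alone was called higher (median 0.20), and Synpo, the podocyte actin regulator synaptopodin, lost its call, with 6.85, 5.61 and 12.1 CPM (0.82, from 1.01).

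Apart from Acta2 and Tagln, the defining markers of other cell types were low. The 9 parietal epithelial or progenitor markers summed to 11151 CPM in vehicle non-cycling cells, 8402 CPM in the other vehicle cells and 5169 CPM in panobinostat non-cycling cells, mostly keratins. Podocyte markers summed to 14.4, 12.4 and 24.4 CPM, and Wt1, a transcription factor of podocytes, was at 0 in vehicle non-cycling cells. Mesangial, fibroblast or smooth muscle markers summed to 2482, 1168 and 76.8 CPM, almost all of it Acta2 and Tagln, while Pdgfrb and Itga8 were at 0.0548 and 0.165 CPM in vehicle non-cycling cells. Endothelial markers summed to 20.3, 6.25 and 3.25 CPM. Emcn, the endothelial sialomucin, was called lower, but its 290 vehicle UMIs came from 2 of 643 cells, and without cells holding endothelial UMIs the counts were 793 higher and 592 lower. Leukocyte markers summed to 6.09, 4.39 and 66.5 CPM, carried by the lysosomal gene Cd68 (5.15, 3.85 and 64.2 CPM).

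Smaller groups divided without a common direction, where 9.23% of all genes were called higher and 6.88% lower. Of 22 apoptosis regulators 3 were called higher and 3 lower (median -0.27), with Bcl2l11, the killer protein Bim, at 18.2, 18.9 and 37 CPM (1.03) and Bok, a Bax relative, at 186, 253 and 40.1 CPM (-2.21). Casp8, the initiator caspase, lost its call at -0.92. Of 23 unfolded protein and integrated stress genes 4 were called lower and 1 higher (median -0.08), among them Asns, asparagine synthetase, at 209, 149 and 95.4 CPM (-1.13). Of 20 glycolysis genes 5 were called higher and 1 lower (median 0.20), but over the 16 members past the floor in all 3 comparisons the median was -0.12. Hk2, a hexokinase, was at 103, 122 and 226 CPM (1.14), and Pfkl, the liver phosphofructokinase, at 43.4, 54.9 and 15.6 CPM (-1.48).

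The tubulin and motor list had 3 of 23 called higher (13%) and 1 lower (4.35%), against 9.23% and 6.88% of all genes. Secreted factors of senescence had 5 of 14 higher and 1 lower, with Areg, an EGF receptor ligand, at 6.74, 28.9 and 92.4 CPM (3.78, from 1.95). Of 10 retinoic acid genes 4 were called higher and 2 lower (median 0.42, or -0.46 over the 6 past the floor in all 3 comparisons). Aldh1a1, which makes retinoic acid, was at 3.84, 2.52 and 44.4 CPM (3.53), whereas its relative Aldh1a2 was at 54.1, 78.8 and 25 CPM (-1.12). Members of this pathway were thus called in opposite directions.

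Of 15 imprinted genes 4 were called higher and 1 lower (median 0.26, or -0.05 over the 13 past the floor in all 3 comparisons), and of 19 heat shock genes and chaperones 2 were called higher (median -0.13), the inducible chaperone Hspa1a (1.67) and the small chaperone Hspb8 (2.21). Of 15 NF-kB targets 5 were called higher and 1 lower (median -0.21), with Lif, a cytokine, at 24.3, 19.7 and 5.75 CPM (-2.08). Of 23 chromatin corepressors 2 were called lower (median -0.25), Mta3 and Mbd3, both of the NuRD complex that carries deacetylases. Dnmt1, the maintenance DNA methyltransferase, was called lower over all cells (-1.19) but was at 15.9, 81.4 and 29.7 CPM, a ratio of 0.90 in non-cycling cells. Of 29 epithelial junction and keratin genes 5 were called lower and 1 higher (median -0.55). Nuclear genes of the respiratory chain had 2 of 23 called higher (median 0.32), and cholesterol genes 1 of 21 (median -0.21). Of all genes 9.23% were called higher and 6.88% lower. The respiratory (8.7%) and heat shock (10.5%) shares called higher and the corepressor share called lower (8.7%) were near these. Of 8 endothelial genes 3 passed the floor, with Flt1 (3.02) and Egfl7 (2.79) called higher beside the lower Emcn, and of 11 tubule genes 2 passed it, with Lrp2 higher (4.74) and Havcr1, an injury marker, lower (-1.51).

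The mitochondrially encoded genes had 0 of 13 called (median 0.31).

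Numbers of calls were similar across depth. Within 4 bands of UMIs per cell, from under 20000 to over 45000, 835 to 967 genes were called higher and 599 to 752 lower, and 1376 to 1389 of the 1391 genes called over all depths had the same direction. Each band is a part of the cells in which those 1391 genes were called, so this agreement is largely set by that choice. The neuronal median lay between 2.39 and 3.66 in the bands and the contractile median between -1.21 and -1.12. The neuronal values rest on 12 to 15 members per band, against 16 over all depths, so they are not medians of the same members. Setting the limit on thinned counts gave 800 higher and 575 lower calls, and cells with 0 UMIs over the 12 genes gave 867 and 604.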

How the data were processed

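The deposited matrix holds raw UMI counts for 19394 genes and 5135 cells, not normalized by the authors; Cell Ranger 3.0.1 and mm10 are named per the submitters' processing notes, while the annotation was not given in those sources. Barcode suffixes, read as control and panobinostat, assign cells to libraries, which share 0 barcodes. Per cell, detected genes began at 1798 and mitochondrial shares ended at 9.98%. No further filter was applied and doublets were not called here.

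Counts were summed over non-cycling cells, scaled to 1000000 and compared by log2 ratio with exact conditional binomial intervals (scipy 1.17.1). A gene with 0 counts was set at 3 counts for a bound, and no p-value was computed since each treatment has 1 library. Intervals leave out variation between cells, cultures and animals. The scripts were tested on simulated data. Named genes are the 14 largest and 14 smallest ratios (at least 50 CPM in 1 population and 10 UMIs in each), up to 4 members of each of 40 lists, the 12 moving most towards and the 12 most away from 0, and 24 always named; other members are named from the lists, and some were chosen after their values were seen. The members and lists were chosen with earlier results of these data known. Alternatives were other limits, G1 calls by scanpy 1.11.5, depth filters, thinning, scaling by edgeR 4.0.16 TMM factors or DESeq2 1.42.0 size factors, other floors and folds. Gene coordinates are from GENCODE M21 by symbol (98.7% matched), and promoters from RefSeq on GRCm38.p6.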

Additional observations from a re-analysis of the deposited data

How the results depend on the processing

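With 1 library per treatment, no replicate could be left out. No paired analysis was possible because each treatment has 1 library and no test was made. In non-cycling cells, the 797 higher and 594 lower calls became 2251 and 1017 at a floor of 1 CPM, 244 and 220 at 50 CPM, 3050 and 1339 with no floor, 1642 and 1474 at 1.5-fold, and 407 and 167 at 3-fold; with all cells the lower calls were 961. Within vehicle, the 62 higher and 419 lower calls became 264 and 659, 18 and 124, 527 and 731, 329 and 874, and 7 and 253 under the same floors and folds in that order. These changes follow from the thresholds and from the cells included. Higher calls were 57.3% of all calls, 53.3% with TMM factors and 51.8% with DESeq2 size factors, which shifted the median gene to -0.05 and -0.06. Among the genes named by the rules above, ratios that turned in all cells were those of Chaf1b (-1.10), Gmnn (-0.72), Hat1 (-0.79), Knstrn (-2.30) and Prim1 (-1.78). Lig1, Ncaph and Spc25, outside that selection, turned as well. In cells with at most 1 Acta2 UMI, a choice made after seeing the data like those without endothelial UMIs and of 20000 to 45000 UMIs, Cnn1 (1.57) and Lce1g (0.36) turned; the cause was not tested. Of 187 named genes with vehicle UMIs, 141 kept direction and call with all cells and 136 at the 50 CPM floor, against 171 to 187 of the 184 to 187 with a value in each other choice of cells, scaling or floor. Genes near 10 CPM rest on under 200 vehicle UMIs.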
